A study of Mus musculus with 36 samples.

Results

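The sarcoplasmic reticulum calcium handling genes are 10 genes, chosen by their symbols from the 56246 rows of the gene table, and each symbol was found in 1 row. They were measured in bulk RNA of tibiae from 36 mice at 6 months of age, with 12 mice a group and 6 males and 6 females in each. By the methods of the study, epiphyses and marrow had been taken off the tibiae first, and mostly cortical bone remained. WT mice were Lmna+/+ and had no injection (NT in the labels). The saline and ABE mice were double-copy LMNA G/G mice, which carry a human BAC with the progeria form of LMNA and with RAB25 on the C57BL/6J background, and were injected retro-orbitally 14 days after birth with saline or with a pair of AAV9 vectors that encode an adenine base editor (ABE) directed at the transgene. Saline against WT therefore compares both genotype and injection, ABE against saline compares 2 injected groups of 1 genotype, and the 3 comparisons share groups. The study describes the groups as littermates, while the WT mice bear numbers from a separate series in the labels. Whether the series differ in batch is not given in the sources used here, and such a difference could not be told apart from genotype. In 3 LMNA G/G libraries (ABE replicates 2 and 11 and saline replicate 9) the title also holds the letters WT, and results that changed without them are given as such.

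In a muscle fiber, the sarcoplasmic reticulum stores calcium and releases it to start a contraction. At the triad, where a transverse tubule meets the reticulum, the voltage sensor Cacna1s opens the release channel Ryr1, and Jph1 and Trdn hold the 2 membranes and the channel complex together. Casq1 and Casq2 bind calcium inside the store. The pumps encoded by Atp2a1 (fast fibers) and Atp2a2 (slow fibers, heart and most other cells) return calcium to it, sarcolipin (Sln) slows the pump, and parvalbumin (Pvalb) binds calcium in the cytosol of fast fibers. Bone cells have a calcium store of their own, with Atp2a2 but without the triad, so most of these genes are known as muscle genes and not as bone genes.

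Promoter sequences in RefSeq (GRCm38.p6) matched 6 of the 10 genes by symbol. The 250 bases before the start are shown for 4 of them, 3 whose levels followed muscle RNA closely (Atp2a1, Casq1 and Pvalb) and 1 whose level followed it less (Casq2). Each is printed 5′ to 3′ in the direction of the gene, and capitals mark matches to the E-box CANNTG or to the MEF2 site, both of them motifs of muscle regulatory DNA, searched on both strands. The RefSeq start lies 35 bases inside the GENCODE gene given below for Atp2a1, so that the end of its window is within that gene, and 27 bases before it for Casq1, while both starts are the same for Pvalb and Casq2.
Atp2a1, chr7:126463074-126463323, minus strand: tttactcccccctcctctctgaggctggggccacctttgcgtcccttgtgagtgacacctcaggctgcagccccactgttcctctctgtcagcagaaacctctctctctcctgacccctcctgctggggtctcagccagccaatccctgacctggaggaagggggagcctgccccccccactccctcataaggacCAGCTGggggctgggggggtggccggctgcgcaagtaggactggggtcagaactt
Casq1, chr1:172219896-172220145, minus strand: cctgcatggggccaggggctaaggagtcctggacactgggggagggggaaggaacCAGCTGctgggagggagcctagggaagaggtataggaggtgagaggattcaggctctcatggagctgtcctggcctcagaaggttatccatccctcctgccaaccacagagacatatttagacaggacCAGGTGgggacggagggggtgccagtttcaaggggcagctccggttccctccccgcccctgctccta
Pvalb, chr15:78206401-78206650, minus strand: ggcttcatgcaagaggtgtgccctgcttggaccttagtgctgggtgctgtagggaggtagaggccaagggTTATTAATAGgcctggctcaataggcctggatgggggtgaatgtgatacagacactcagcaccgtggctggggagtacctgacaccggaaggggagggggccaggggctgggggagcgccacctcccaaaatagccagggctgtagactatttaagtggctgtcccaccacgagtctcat
Casq2, chr3:102086165-102086414, plus strand: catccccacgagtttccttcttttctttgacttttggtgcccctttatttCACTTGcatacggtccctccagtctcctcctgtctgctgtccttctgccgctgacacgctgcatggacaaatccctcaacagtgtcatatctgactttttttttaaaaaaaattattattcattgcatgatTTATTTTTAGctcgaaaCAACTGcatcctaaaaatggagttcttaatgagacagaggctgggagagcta
An E-box stood in 4 of the 6 windows (Atp2a1, Casq1, Casq2 and Cacna1s) and in 66.2% of 32841 promoter windows of the same length. The MEF2 site stood in 2 of the 6 (Pvalb and Casq2) and in 2.92% of all windows, while the CArG box and TATAAA stood in 0 of the 6 and in 1.47% and 12.4% of all. None of the matches in the 6 windows overlapped. These are matches of letters, and whether any is a bound site was not tested.

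Values are scaled TPM. These are the deposited TPM, a level per gene length that sums to the same total in every library, after rescaling by median ratios, which sets the typical gene at the same level in every library. Libraries held 63824773 to 86981913 reads on genes in WT, 63764802 to 116206662 in saline and 48064068 to 98760210 in ABE mice. Before scaling, the median log2 change of all genes was -0.13 (saline against WT), -0.42 (ABE against WT) and -0.27 (ABE against saline), and after it 0.0044, -0.017 and -0.00041. The ABE library of replicate 1 stood apart with a scaling factor of 0.216, against 0.831 to 1.57 in the WT and saline groups. The human transgene was not measured here, and mouse Lmna differed by a log2 change of 0.14 ± 0.08 (SE; limma, adjusted p = 0.13) in saline and 0.24 ± 0.08 (limma, adjusted p = 0.0081) in ABE mice against WT. Reads were aligned to the mouse genome, and whether reads of human LMNA were counted in mouse Lmna was not tested.

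All 10 genes were detected in all 36 libraries. In WT tibiae Atp2a1 had the highest median, 193.5 scaled TPM, followed by Pvalb at 109 and Casq1 at 20.9. Atp2a2 (10.7) and Ryr1 (10.5) came next and did not differ in order, since Atp2a2 was the higher in 7 of 12 WT libraries. Below them, each gene exceeded the next in 12 of 12 libraries, with Cacna1s at 5.57, Jph1 at 2.39, Trdn at 1.29, Casq2 at 0.377 and Sln at 0.0417. Both LMNA G/G groups had the same 3 most abundant genes in the same order, followed by Ryr1. Atp2a2, in contrast, had rank 4 in WT, rank 6 in saline and rank 7 in ABE mice, and its neighbours there were Cacna1s (higher than Atp2a2 in 6 of 12 saline libraries) and Jph1 (higher in 6 of 12 ABE libraries). Sln stood above Casq2 in 9 of 12 saline libraries and below it in every WT and ABE library.

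**Figure D1:**
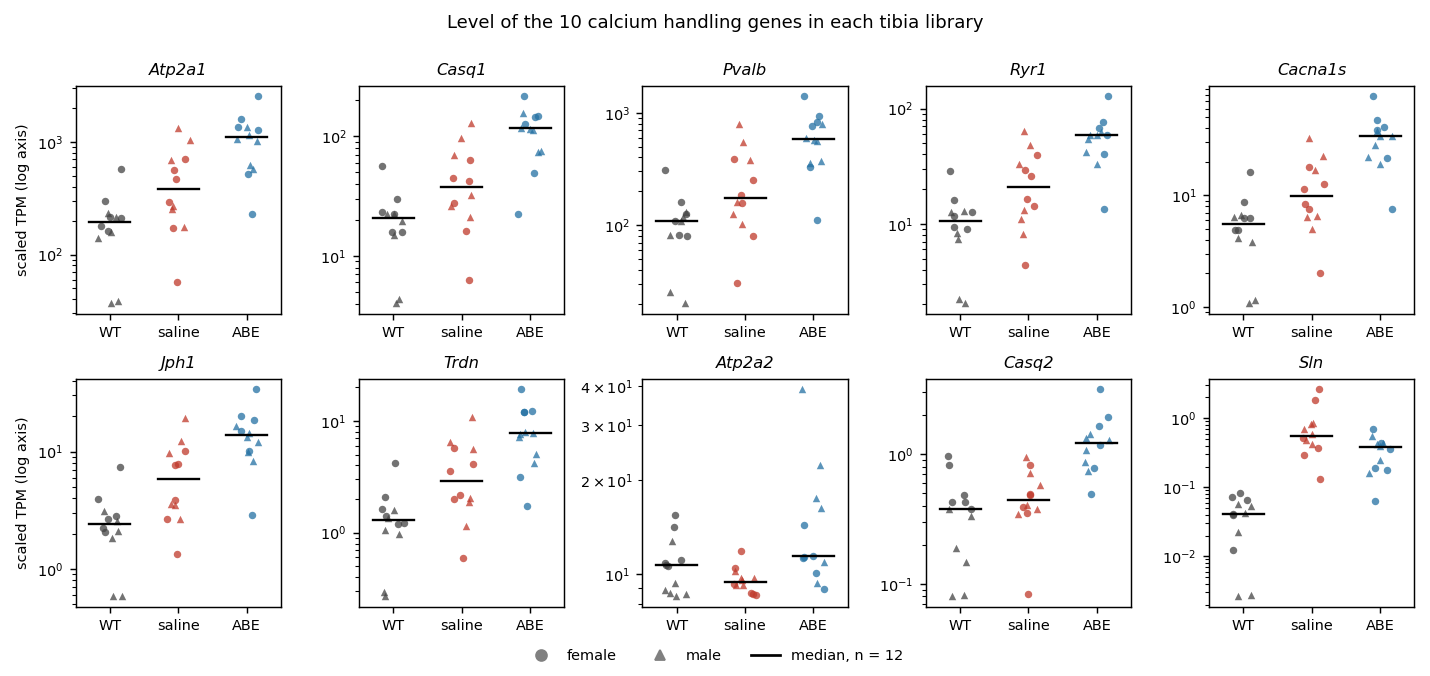
Scaled TPM (log axis, which differs between panels) of each calcium handling gene in 12 WT, 12 saline and 12 ABE libraries, with circles for females, triangles for males and a line at the median. Atp2a1 medians are 193.5, 378 and 1107, Atp2a2 medians stay between 9.45 and 11.4, and for Sln no saline library lies as low as any WT library.

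Most of the genes rose from WT to saline and again from saline to ABE mice. In limma fits with sex as a covariate, 9 of the 10 genes passed the filter of a mean of 0.5 scaled TPM, and Sln (mean 0.398) did not. Casq2 passed because of its level in ABE mice (its mean over WT and saline libraries was 0.448) and is therefore left out of the counts here. Of the other 8 genes, 7 rose in saline against WT and 0 fell, where 25.9% of all 15928 genes tested rose and 26.7% fell. All 8 rose in ABE against WT, where 35.1% of all genes rose and 35.4% fell, and all 8 rose in ABE against saline, where 25.1% rose and 23.7% fell. Their median log2 change was 1.07, 2.47 and 1.35 in the 3 comparisons, and that of all genes tested was within 0.017 of 0. Skeletal muscle RNA was also higher. The geometric mean of Acta1 and Ckm, the actin and the creatine kinase of skeletal muscle fibers, ran from 29.2 to 474 scaled TPM in WT (median 151), from 42.2 to 1190 in saline (median 302.5) and from 148 to 2015 in ABE libraries (median 974). In saline against WT, Acta1 rose by a log2 change of 1.36 ± 0.46 (limma, adjusted p = 0.013), and Ckm, at 1.06 ± 0.48 (limma, adjusted p = 0.062), missed the threshold. In ABE against saline, Acta1 rose by 1.24 ± 0.46 (limma, adjusted p = 0.025) and Ckm by 1.41 ± 0.48 (limma, adjusted p = 0.016). In a piece of tissue, fewer or more muscle fibers and less or more RNA per fiber cannot be told apart, and the labels do not say how much muscle was left on each bone.

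At the triad, Ryr1 (ENSMUSG00000030592.18, chr7:29003344-29125179, minus strand), the calcium release channel, lay between 2.04 and 29.0 scaled TPM in WT (median 10.5), between 4.41 and 64.5 in saline (median 21.1) and between 13.4 and 129 in ABE libraries (median 59.2). Saline and WT overlapped, with 5 of 12 saline libraries above every WT library, and 11 of 12 ABE libraries lay above every WT library. The log2 change was 1.09 ± 0.39 (SE; limma, adjusted p = 0.019) in saline against WT, 2.44 ± 0.39 (limma, adjusted p = 1.9e-06) in ABE against WT and 1.35 ± 0.39 (limma, adjusted p = 0.0060) in ABE against saline. Cacna1s (ENSMUSG00000026407.17, chr1:136052750-136119822, plus strand), the voltage sensor, ran from 1.08 to 16.1 scaled TPM in WT (median 5.57), from 2.004 to 32.5 in saline (median 9.92) and from 7.56 to 78.0 in ABE mice (median 34.0). Its log2 change was 0.98 ± 0.38 in saline against WT (limma, adjusted p = 0.029) and 1.53 ± 0.38 in ABE against saline (limma, adjusted p = 0.0021), the largest change of the 9 genes between the injected groups.

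The 2 genes that tie the triad together moved alike. Jph1 (ENSMUSG00000042686.5, chr1:16964560-17097889, minus strand), which spans from tubule to reticulum, had medians of 2.39, 5.79 and 13.9 scaled TPM in WT, saline and ABE mice, with ranges of 0.585 to 7.35, 1.34 to 19.2 and 2.90 to 34.0. Trdn (ENSMUSG00000019787.9, chr10:33080554-33476709, plus strand), which links the release channel to calsequestrin, had medians of 1.29, 2.89 and 7.72, with ranges of 0.270 to 4.19, 0.596 to 10.8 and 1.73 to 19.3. Against WT, Jph1 rose in saline mice by a log2 change of 1.13 ± 0.35 (limma, adjusted p = 0.0081) and Trdn by 1.03 ± 0.35 (limma, adjusted p = 0.013). The groups overlapped for both genes, and 11 of 12 ABE libraries exceeded every WT library for Jph1 and 10 of 12 for Trdn.

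Among the pumps, Atp2a1 (ENSMUSG00000030730.12, chr7:126445858-126463108, minus strand), the fast fiber pump, ran from 37.0 to 574 scaled TPM in WT (median 193.5), from 57.4 to 1327 in saline (median 378) and from 227 to 2557 in ABE mice (median 1107). It rose by a log2 change of 1.17 ± 0.45 in saline against WT (limma, adjusted p = 0.030), by 2.53 ± 0.45 in ABE against WT (limma, adjusted p = 9.6e-06) and by 1.36 ± 0.45 in ABE against saline (limma, adjusted p = 0.014). Atp2a2 (ENSMUSG00000029467.15, chr5:122453513-122502225, minus strand), the pump of slow fibers and of cells outside muscle, was far less variable. It lay between 8.48 and 15.5 scaled TPM in WT (median 10.7), between 8.54 and 11.8 in saline (median 9.45) and between 8.99 and 39.1 in ABE mice (median 11.4). The log2 change was -0.15 ± 0.16 in saline against WT (limma, adjusted p = 0.45, 95% interval -0.45 to 0.16), 0.37 ± 0.16 in ABE against WT (limma, adjusted p = 0.036) and 0.51 ± 0.16 in ABE against saline (limma, adjusted p = 0.0083). The rise in ABE against WT turned to -0.11 in females alone and to -0.18 in TPM as deposited, and it missed the threshold without the 3 libraries with WT in their titles (0.35) and in 3 other alternatives. It also missed it in 9 of 36 fits that left out 1 library, which were those without WT replicate 1, 2, 7, 8 or 11 or ABE replicate 8, 9, 10 or 11, with the smallest change, 0.23, without ABE replicate 9.

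The ratio of the 2 pumps moved with these changes, and muscle amount (Acta1 and Ckm) was not in its tests. Over the 36 libraries a rise of 1 in log2 muscle amount went with 0.96 in Atp2a1 and 0.03 in Atp2a2. The ratio is therefore higher where muscle amount is higher, and a shift of the pumps within muscle was not tested. At equal muscle amount in saline against WT, Atp2a1 differed by 0.0020 and Atp2a2 by -0.18, neither of them called. Atp2a1 exceeded Atp2a2 by a median of 16.7-fold in WT (4.15 to 40.5), 36.4-fold in saline (6.72 to 144) and 77.2-fold in ABE libraries (15.9 to 284). The mean log2 ratio, here with 0.5 added to each level, was 1.31 higher in saline than in WT (two-sided permutation test, p = 0.0084, 0.017 adjusted over 6 tests) and 2.16 higher in ABE than in WT (permutation p = 6e-05, adjusted 0.00018). ABE exceeded saline by 0.85, which did not pass (permutation p = 0.11, adjusted 0.11). In females alone the difference between saline and WT was 0.53 and did not pass (exact permutation p = 0.40). For the calsequestrins, Casq1 exceeded Casq2 by a median of 53.1-fold in WT (36.3 to 103), 86.6-fold in saline (32.9 to 136) and 80.5-fold in ABE libraries (45.7 to 144.5), and the 3 groups overlapped. Muscle amount was not in the tests of this ratio either. On the scale with 0.5 added, a rise of 1 in log2 muscle amount went with 0.90 in Casq1 and 0.30 in Casq2. Since Casq2 passed the filter through its level in ABE mice, the ABE values of the ratio are a description. The size of the differences between groups depended on the 0.5 added to Casq2, which is low. With it, the mean log2 ratio differed by 0.89 in saline against WT (permutation p = 0.012, adjusted 0.018), by 1.49 in ABE against WT (permutation p = 2e-05, the smallest that 100000 permutations can give, adjusted 0.00012) and by 0.60 in ABE against saline (permutation p = 0.066, adjusted 0.079). Without it, a setting chosen after seeing the data, the differences were 0.58 (permutation p = 0.023), 0.58 (permutation p = 0.011) and -0.0016 (permutation p = 0.998).

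Casq1 (ENSMUSG00000007122.11, chr1:172209894-172219868, minus strand), the calsequestrin of fast fibers, ran from 4.02 to 56.7 scaled TPM in WT (median 20.9), from 6.32 to 129.5 in saline (median 37.5) and from 22.5 to 218 in ABE mice (median 117). It rose by 1.07 ± 0.42 on the log2 scale in saline against WT (limma, adjusted p = 0.031) and by 1.43 ± 0.42 in ABE against saline (limma, adjusted p = 0.0066). Casq2 (ENSMUSG00000027861.13, chr3:102086415-102146514, plus strand), the calsequestrin of heart and slow fibers, was low throughout, at 0.0801 to 0.976 in WT (median 0.377), 0.0839 to 0.954 in saline (median 0.446) and 0.493 to 3.18 in ABE mice (median 1.23). No rise was detected in saline against WT, with a log2 change of 0.18 ± 0.17 (limma, adjusted p = 0.37, 95% interval -0.15 to 0.51), and in ABE mice the change was 1.01 ± 0.17 against WT and 0.82 ± 0.17 against saline. Since its level in ABE mice brought Casq2 past the filter, these last values are a description. Its reads were well above the filter of the count model in every group, and there it rose by 1.92 ± 0.36 in ABE against WT (limma-voom, adjusted p = 1.8e-05; 36.4% of genes were higher) and by 1.46 ± 0.34 in ABE against saline (limma-voom, adjusted p = 0.0017; 23.9% of genes were higher). The smaller values on scaled TPM come with the 0.5 added before the logarithm, which understates the fold of so low a gene.

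Pvalb (ENSMUSG00000005716.16, chr15:78191114-78206400, minus strand), the cytosolic buffer of fast fibers, ran from 20.2 to 306 scaled TPM in WT (median 109), from 30.4 to 792 in saline (median 173) and from 111 to 1411 in ABE mice (median 585). Its rise in saline against WT, 1.07 ± 0.45 on the log2 scale, passed the threshold narrowly (limma, adjusted p = 0.047), and that in ABE against saline was 1.495 ± 0.452 (limma, adjusted p = 0.0079). The saline against WT result rested on few libraries for several genes. Without 1 of WT replicates 1 or 11 or of saline replicates 7, 11 or 12, only 3 of the genes passed, and without saline replicate 2 only 4 did. For Pvalb the call was lost in 17 of 36 such fits. WT replicates 1 and 11, both male, had the lowest muscle amount of all 36 libraries (29.2 and 32.3 scaled TPM).

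The sexes differed in size of change without passing a test of the difference. In males alone 7 of the 8 genes other than Casq2 rose in saline against WT, where 28.3% of all genes rose, with Atp2a1 at a log2 change of 2.12 ± 0.57 (limma, adjusted p = 0.0051). In females alone 0 of 8 rose, where 8.84% of all genes did, with Atp2a1 at 0.21 ± 0.63 (limma, adjusted p = 0.86). The interaction was 1.92 ± 0.87 for Atp2a1 (limma, adjusted p = 0.19), and over the 8 genes 0 passed in saline against WT, where 0.446% of all genes did and where 4 of the 8 had an unadjusted p under 0.05. Muscle amount differed in the same way, with medians of 181 in WT females, 124 in WT males, 299.9 in saline females and 449.5 in saline males. In ABE against WT, 0 of 8 passed (3.02% of all genes did, and 1 of the 8 had an unadjusted p under 0.05). The nearest was Atp2a2, whose change was 0.95 ± 0.27 larger in males than in females (limma, adjusted p = 0.051). ABE males ran from 9.37 to 39.1 scaled TPM (median 16.9) for Atp2a2 and ABE females from 8.99 to 14.4 (median 11.3). In ABE against saline, 0 of 8 passed, with 1 at an unadjusted p under 0.05 and 0.0251% of all genes called.

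**Figure D2:**
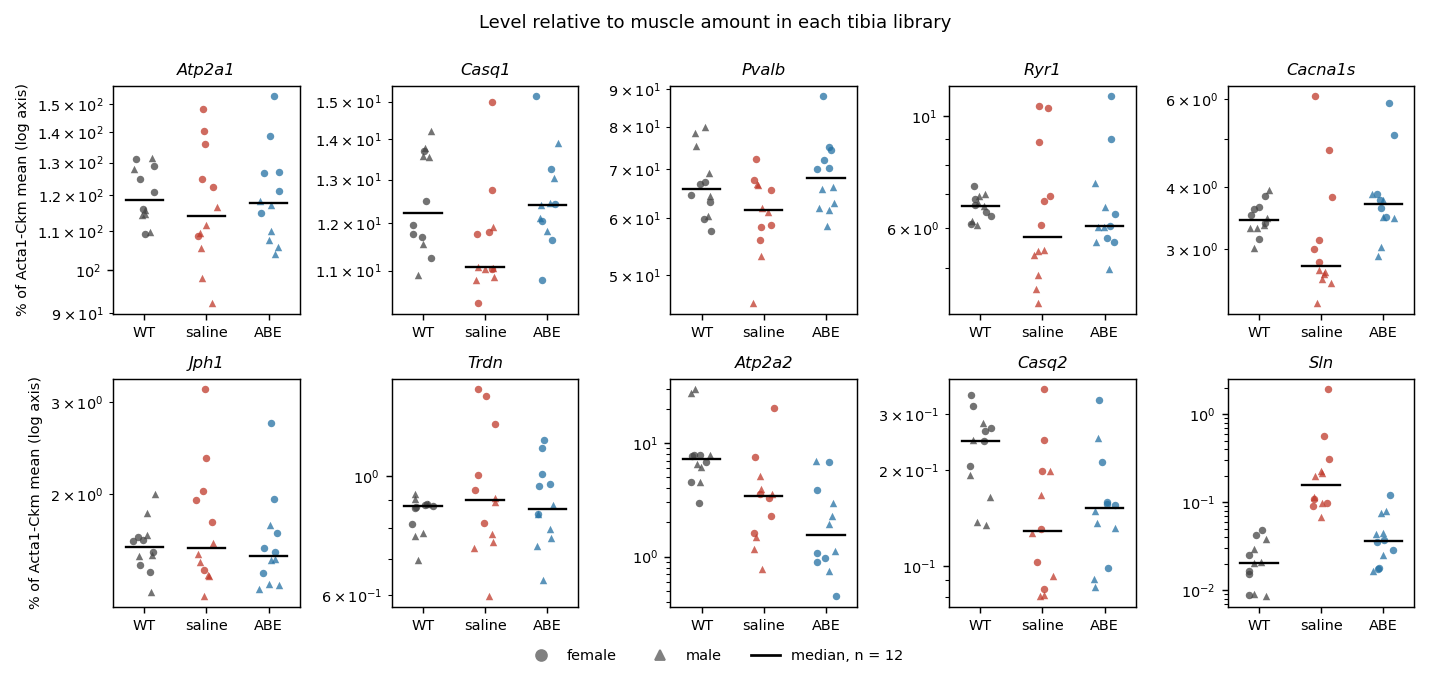
Level of each gene as a percentage of the geometric mean of Acta1 and Ckm in the same library (log axis, which differs between panels), for 12 WT, 12 saline and 12 ABE libraries, with circles for females, triangles for males and a line at the median. Atp2a1 medians are 119%, 114% and 118%, while Atp2a2 medians are 7.25%, 3.40% and 1.54%. The level of Atp2a2 hardly followed muscle amount (slope 0.03 ± 0.059), so its percentage is lower where muscle amount is higher. All 12 saline libraries lie above all WT libraries for Sln.

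Relative to muscle amount, most of the large differences between groups were gone. Atp2a1 stood at 109% to 131% of the Acta1 and Ckm mean in WT (median 119%), 92.1% to 148% in saline (median 114%) and 104% to 153% in ABE libraries (median 118%). Casq1 stood at medians of 12.2%, 11.1% and 12.4%, Pvalb at 65.7%, 61.6% and 68.0%, and Trdn at 0.878%, 0.902% and 0.867%, with overlapping groups. Relative levels of the same genes spread more widely in saline than in WT libraries for Ryr1, at 6.08% to 7.26% in WT and 4.26% to 10.5% in saline, and for Cacna1s, at 3.02% to 3.95% in WT and 2.34% to 6.09% in saline. ABE libraries also spread more widely than WT, at 4.98% to 10.96% for Ryr1 and 2.91% to 5.90% for Cacna1s. In saline the sexes did not overlap for Ryr1, with females at 6.08% to 10.45% and males at 4.26% to 5.44%. The same held for Cacna1s, with females at 2.84% to 6.09% and males at 2.34% to 2.73%. In WT the sexes overlapped for both genes, with Ryr1 at 6.11% to 7.26% in females and 6.08% to 7.01% in males. For Pvalb they did not overlap in ABE libraries, at 70.0% to 88.1% in females and 58.4% to 66.0% in males. How many of all genes separate the sexes in this way was not counted. Over the 36 libraries, with group and sex in the fit, a rise of 1 in log2 muscle amount went with a rise of 0.96 ± 0.019 (SE) in Atp2a1, 0.96 ± 0.024 in Pvalb, 0.90 ± 0.015 in Casq1, 0.82 ± 0.033 in Ryr1, 0.79 ± 0.029 in Cacna1s, 0.74 ± 0.034 in Jph1 and 0.71 ± 0.038 in Trdn. It went with a rise of 0.30 ± 0.036 in Casq2 and of 0.03 ± 0.059 in Atp2a2, where the median of all genes tested was -0.0053. The slopes of low genes are pressed down by the added 0.5.

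With log2 muscle amount as a covariate in limma, 1 of the 8 genes other than Casq2 was called in saline against WT, Jph1 at a log2 change of 0.24 ± 0.10 (limma, adjusted p = 0.046), where 21.9% of all genes tested were higher and 24.2% lower. That call was lost in 20 of 36 fits that left out 1 library and in 11 of 19 alternatives. In ABE against WT, 4 were called higher, where 19.4% of all genes were higher and 19.4% lower. They were Cacna1s at 0.51 ± 0.11 (limma, adjusted p = 0.00038), Jph1 at 0.40 ± 0.13 (limma, adjusted p = 0.012), Ryr1 at 0.37 ± 0.12 (limma, adjusted p = 0.017) and Casq1 at 0.23 ± 0.055 (limma, adjusted p = 0.0018). In ABE against saline, 3 were called higher, where 7.80% of all genes were higher and 4.14% lower. These were Cacna1s at 0.49 ± 0.09 (limma, adjusted p = 0.00079), Casq1 at 0.24 ± 0.045 (limma, adjusted p = 0.0015) and Pvalb at 0.22 ± 0.07 (limma, adjusted p = 0.045). The Pvalb call was lost in 20 of 36 fits that left out 1 library and in 10 of 19 alternatives. Casq2, described only, differed by 0.43 ± 0.11. For Atp2a1 the interval of the difference was -0.11 to 0.11 in saline against WT and -0.03 to 0.20 in ABE against saline.

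These smaller differences depended on how muscle amount was taken into account. The 2 genes of the muscle amount moved apart in saline against WT, with Acta1 called higher (0.18) and Ckm lower (-0.18) at equal muscle amount. In percent of their mean, 7 of 12 saline libraries lay above every WT library for Acta1 and 7 of 12 below every WT library for Ckm. Saline replicate 3, highest in Sln, had Acta1 at 275% and Ckm at 36.3%. In ABE against WT (0.13 and -0.13) and ABE against saline neither was called. When a gene was required to follow muscle amount with a slope of 1, as the percentages do, 0 of the 9 genes were called in ABE against saline, where 84.6% of all genes were called, since most genes do not follow muscle amount. In ABE against WT, where 97.1% of all genes were then called lower, 2 of the 9 were, Atp2a2 by a log2 change of -2.16 (limma, adjusted p = 7.6e-05) and Casq2 by -1.52 (limma, adjusted p = 0.00034). Since Casq2 passed the filter through its level in ABE mice, its value is a description. Ryr1 shows the same in its values, since 7 of 12 ABE libraries lay below every WT library in percent of muscle amount while the fitted difference was above 0. Cacna1s was higher in percent of muscle amount than the saline median in 12 of 12 ABE libraries.

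**Figure D3:**
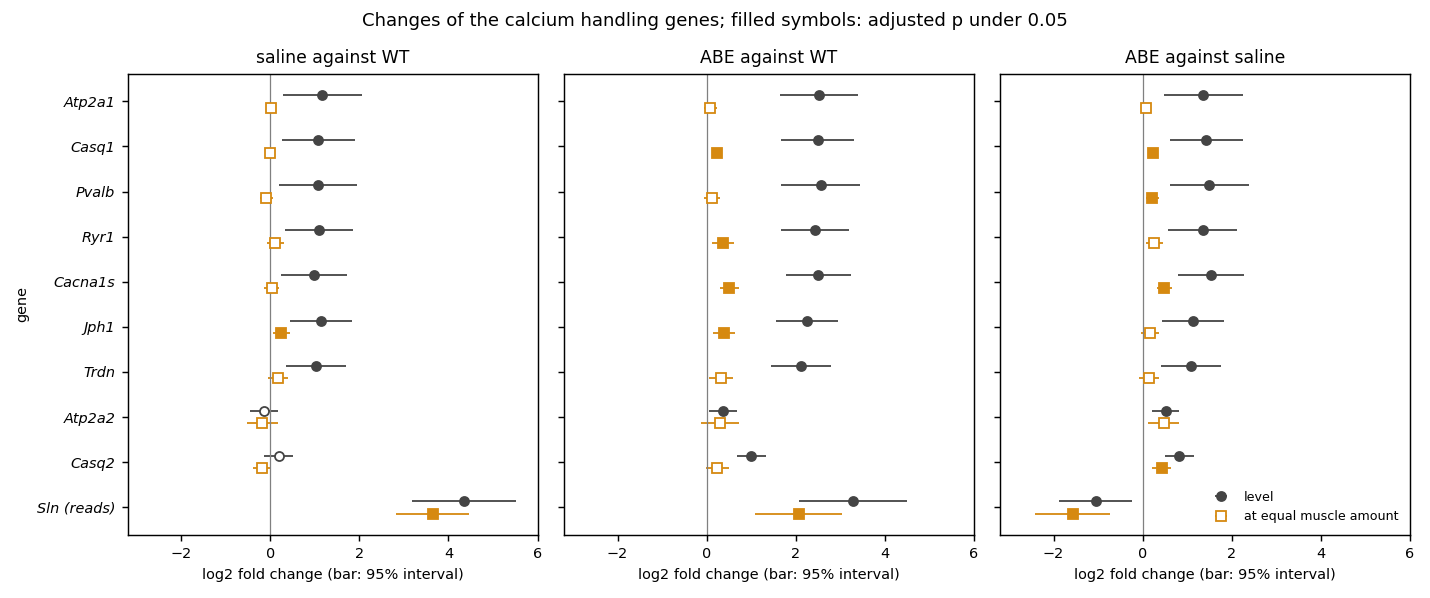
Log2 fold changes of the 10 genes in saline against WT, ABE against WT and ABE against saline (x axis), as levels (circles) and at equal muscle amount (squares), with 95% intervals and filled symbols for an adjusted p under 0.05. Sln comes from limma-voom on reads and the other genes from limma on scaled TPM. Atp2a1 falls from 1.17, 2.53 and 1.36 to 0.0020, 0.087 and 0.085 at equal muscle amount, while Sln stays at 3.64, 2.07 and -1.57.

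Sln (ENSMUSG00000042045.6, chr9:53850164-53854560, plus strand), which encodes the small pump inhibitor sarcolipin, stood apart from the other genes. Its counts were low, at 1 to 24 reads in WT (median 12), 66 to 896 in saline (median 186.5) and 19 to 187 in ABE libraries (median 80.5). In scaled TPM it ran from 0.00263 to 0.0832 in WT (median 0.0417), from 0.131 to 2.65 in saline (median 0.551) and from 0.0643 to 0.704 in ABE mice (median 0.382). All 12 saline libraries exceeded all 12 WT libraries, which held for 2.73% of the 15928 genes above the filter in this direction and for none of the other 9 calcium handling genes. In ABE mice 11 of 12 libraries exceeded every WT library. Since Sln failed the filter, it was tested by limma-voom on reads recovered from the TPM, over 22955 genes. It was higher in saline than in WT by a log2 change of 4.35 ± 0.60 (limma-voom, adjusted p = 2.7e-07; 27.9% of genes were higher) and in ABE than in WT by 3.29 ± 0.61 (limma-voom, adjusted p = 1.7e-05; 36.4% were higher). Between the injected groups it fell by 1.06 ± 0.42 on the log2 scale (limma-voom, adjusted p = 0.039; 22.6% of genes were lower), the opposite direction to the other 9 genes. That fall missed the threshold in 9 of the 36 fits that left out 1 library, at its smallest a log2 change of -0.84 (adjusted p = 0.085) without ABE replicate 3. The others were ABE replicates 2, 6, 11 and 12 and saline replicates 3, 6, 7 and 12. It was also missed in females alone (-1.24, adjusted p = 0.18), in males alone (-0.88, adjusted p = 0.067) and without the 3 libraries with WT in their titles (adjusted p = 0.072). On log2(scaled TPM + 0.5) with no filter, a scale that shrinks so low a gene, the 3 changes were 1.12, 0.61 and -0.51, each past the threshold.

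Per muscle amount the order of the groups was the same, and the fitted fall from saline to ABE mice was larger. Sln stood at 0.00849% to 0.0480% of the Acta1 and Ckm mean in WT (median 0.0205%), 0.0683% to 1.93% in saline (median 0.156%) and 0.0165% to 0.120% in ABE libraries (median 0.0358%). Again all saline libraries exceeded all WT libraries, and 9 of 12 ABE libraries lay below every saline library. The share of all genes with such gaps in percent was not counted. A gene that does not follow muscle amount falls in percent where muscle amount rises, and 84.6% of all genes were called in ABE against saline with a slope fixed at 1. At equal muscle amount Sln was higher in saline than in WT by 3.64 ± 0.42 (limma-voom, adjusted p = 9.1e-09; 24.8% of genes were higher), higher in ABE than in WT by 2.07 ± 0.50 (limma-voom, adjusted p = 0.0012; 20.7% were higher) and lower in ABE than in saline by a log2 change of -1.57 ± 0.43 (limma-voom, adjusted p = 0.017; 5.49% were lower). These 3 calls were kept in all 36 fits that left out 1 library, with changes of 3.25 to 3.88, 1.74 to 2.37 and -1.69 to -1.39. On log2(scaled TPM + 0.5) with no filter they were 0.99 (limma, adjusted p = 8e-05), 0.35 (limma, adjusted p = 0.34) and -0.64 (limma, adjusted p = 0.043), so that the difference between ABE and WT did not pass there. In females alone the difference between ABE and WT was 1.58 (adjusted p = 0.14) and that between ABE and saline -2.02 (adjusted p = 0.34), neither past the threshold. The highest values belonged to the saline females of replicates 3 (2.65 scaled TPM, 896 reads) and 6 (1.85 scaled TPM, 584 reads).

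**Figure D4:**
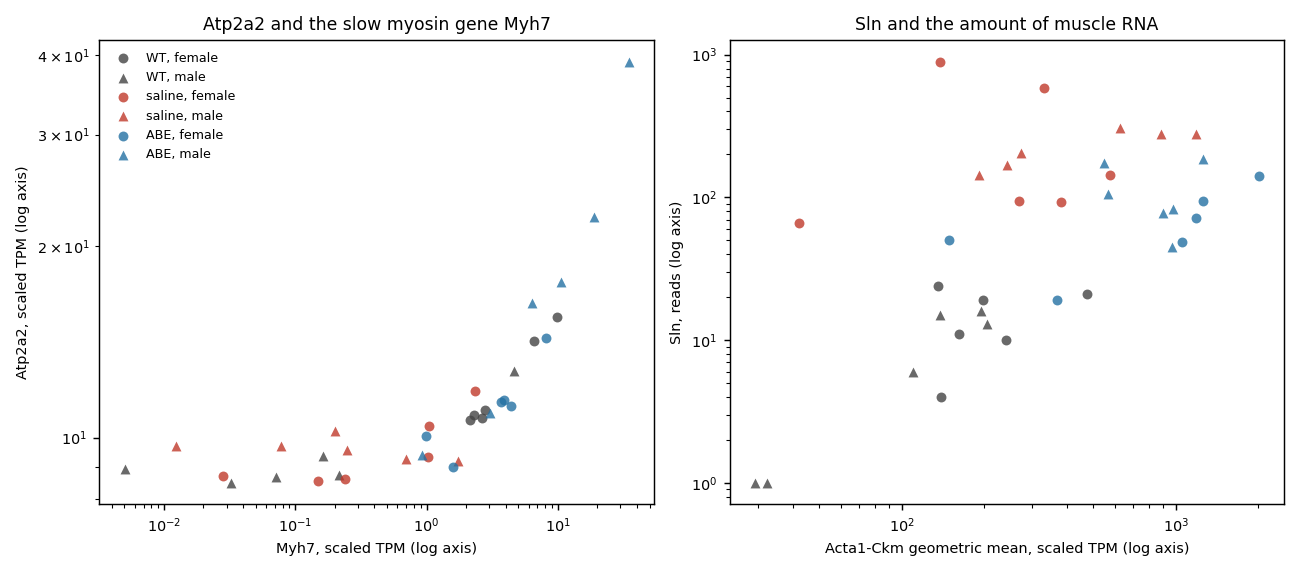
Left, Atp2a2 against the slow myosin gene Myh7 (both scaled TPM, log axes) in 36 libraries. Right, Sln reads against the geometric mean of Acta1 and Ckm (scaled TPM, log axes) in the same libraries, with circles for females and triangles for males. The ABE libraries with the highest Atp2a2, 39.1 and 22.3, also have the highest Myh7, 34.8 and 19.0, and the saline libraries lie above the WT libraries for Sln.

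Libraries high in Atp2a2 were high in slow fiber genes. Myh7, the myosin of slow fibers (named after its values were seen), had medians of 2.23 scaled TPM in WT, 0.245 in saline and 4.12 in ABE mice. The 4 libraries with the highest Atp2a2 were ABE males of replicates 9, 11, 8 and 10, at 39.1, 22.3, 17.6 and 16.3 scaled TPM, with Myh7 at 34.8, 19.0, 10.5 and 6.35. Libraries with Myh7 under 1 had Atp2a2 at 8.48 to 10.2. Of the 6 slow fiber genes listed, 0 passed in saline against WT (0 also at an unadjusted p under 0.05), and all 6 were higher in ABE against WT and in ABE against saline, with median log2 changes of -0.46, 1.57 and 1.82. Of all genes tested, 25.9% were higher and 26.7% lower in saline against WT, and 35.1% and 25.1% were higher in the 2 ABE comparisons. Among the 6 slow fiber genes, Tnni1 passed the filter through its level in ABE mice, so that its rise there is a description. The rise in ABE against WT differed between the sexes. The interaction was called in 3 of the 6, with a larger change in males, where 3.02% of all genes were called. All 6 had an unadjusted p under 0.05 (median interaction 2.61). In ABE against saline 0 of the 6 interactions were called. Tnnc1 and Myl2 changed by as little as 0.34 and 0.49 in ABE against WT over their alternatives. Tnnc1, the calcium sensor of slow fibers, changed by -0.55 ± 0.46 in saline against WT (limma, adjusted p = 0.33) and by 2.34 ± 0.46 in ABE against saline (limma, adjusted p = 0.00061), and Myl2 by -0.14 ± 0.45 (limma, adjusted p = 0.81) and 1.82 ± 0.45 (limma, adjusted p = 0.0022). At equal muscle amount, 2 of the 6 slow fiber genes were lower in saline against WT, where 24.2% of all genes were (median of the 6 -0.89). They were Myh7 and Myl3, named after their values were seen, and 3 of the 6 had an unadjusted p under 0.05. In ABE against saline 4 were higher (median 1.375), where 7.80% of all genes were, and in ABE against WT 0 were called (median 0.63). With the slow fiber list as a covariate beside muscle amount, chosen after seeing the data, Atp2a2 differed by 0.16 ± 0.07 in saline against WT (limma, adjusted p = 0.054) and by -0.10 ± 0.08 in ABE against saline (limma, adjusted p = 0.42). Sln on reads had log2 changes of 3.95, 1.83 and -2.11 in the 3 comparisons of such a fit.

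Other cells that use these genes were looked for by their markers. Beside the counts below stand 25.9% of all genes higher and 26.7% lower in saline against WT. These shares were 35.1% and 35.4% in ABE against WT and 25.1% and 23.7% in ABE against saline. Nothing particular to a list is read from a count near them. Of 8 fast fiber genes, 7 rose in saline against WT, 8 in ABE against WT and 6 in ABE against saline. Tnnt3, their troponin T, changed by 1.31 ± 0.45 (limma, adjusted p = 0.015), 2.52 ± 0.45 (limma, adjusted p = 9.8e-06) and 1.21 ± 0.45 (limma, adjusted p = 0.027), and Myh4, the fastest myosin, missed the threshold in saline against WT at 0.85 ± 0.47 (limma, adjusted p = 0.13). At equal muscle amount, 6 of the 8 fast fiber genes were higher and 1 lower in saline against WT (21.9% and 24.2% of all genes). In ABE against WT 2 were higher and 1 lower (19.4% and 19.4% of all genes). In ABE against saline 0 were higher and 3 lower (7.80% and 4.14% of all genes). Cardiac markers were near 0. The sum of the 6 ran from 0.244 to 0.427 scaled TPM in WT, 0.169 to 0.606 in saline and 0.339 to 1.76 in ABE libraries, with Nppa and Nppb at a median of 0 in every group and Myl7 at a median of 0 in WT and saline. Tnni3 and Myh6 had the highest means of the list, with Myh6 medians of 0.0166, 0.0486 and 0.216. Heart is a tissue in which Casq2, Atp2a2 and Sln are abundant. Of 5 smooth muscle genes 4 were tested, of which 0 rose and 1 fell in saline against WT (Smtn, -0.22 ± 0.08, limma, adjusted p = 0.031), 2 rose in ABE against WT and 3 in ABE against saline. Of the 10 osteocyte and osteoblast genes 9 were tested. In saline against WT 5 rose and 0 fell, in ABE against WT 6 rose and 0 fell, and in ABE against saline 1 rose and 2 fell. The osteocyte genes Mepe, Sost and Dmp1, named after their values were seen, had larger changes than any calcium handling gene on this scale in saline against WT, 4.75 ± 0.23 (limma, adjusted p = 3.5e-16), 3.95 ± 0.23 (limma, adjusted p = 3e-14) and 2.77 ± 0.22 (limma, adjusted p = 5.6e-12). The bone collagen genes Col1a1 and Col1a2 had medians of 964.5 and 242 scaled TPM in WT, and neither passed in any comparison. Of 8 blood and marrow genes tested, 2 rose and 2 fell in saline against WT, 3 fell in ABE against WT and 6 in ABE against saline, with S100a9 and Ngp the most abundant, and the list of 9 summed to medians of 1186, 2142 and 1298 scaled TPM in WT, saline and ABE mice. Of the 6 genes of denervation and regeneration, Myod1 alone was tested and rose in the 3 comparisons by log2 changes of 0.96, 1.93 and 0.97, and the list summed to medians of 0.502, 2.07 and 4.28. At equal muscle amount Myod1 differed by 0.37, 0.70 and 0.33, and it was called in ABE against WT only, where 19.4% of all genes were higher. Of 4 nerve and Schwann genes tested, Mbp fell against WT in both LMNA G/G groups (named after its values were seen), and 1 gene rose in ABE against saline. The part of these cells in the changes of the calcium handling genes was not tested.

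The rest of the triad followed the same course. Of 25 other genes of the triad and the reticulum, 22 were tested, 2 of them (Mrln and Strit1) past the filter through their level in ABE mice. In saline against WT, 15 rose and 0 fell (median log2 change 0.62), where 25.9% of all genes rose and 26.7% fell. In ABE against WT, 20 rose and 2 fell (median 1.71), where 35.1% of all genes rose and 35.4% fell. In ABE against saline 18 rose and 2 fell (median 0.95), where 25.1% rose and 23.7% fell. Mrln and Strit1 are included in these counts and medians, and for them the ABE comparisons are a description. The most abundant were Tmem38a, a potassium channel of the reticulum, Srl, which encodes the calcium binding sarcalumenin, Jsrp1, which joins the voltage sensor to the reticulum, and Hrc, a calcium binding protein of the lumen. Tmem38a had medians of 8.89, 19.7 and 56.8 scaled TPM, and it changed by 1.10 ± 0.40 in saline against WT (limma, adjusted p = 0.020) and by 1.31 ± 0.40 in ABE against saline (limma, adjusted p = 0.0079). Jsrp1 had medians of 5.34, 13.0 and 34.3 and changed by 1.33 ± 0.39 (limma, adjusted p = 0.0048) and 1.36 ± 0.39 (limma, adjusted p = 0.0055). Srl and Hrc rose in all 3 comparisons too, with log2 changes of 1.18 and 1.05 in saline against WT. The 2 genes that fell in both ABE comparisons, named after their values were seen, were Fkbp1b and Sri, both also known outside skeletal muscle, with log2 changes of -0.19 ± 0.06 (limma, adjusted p = 0.0082) and -0.32 ± 0.09 (limma, adjusted p = 0.0034) in ABE against saline. Pln, Ryr2 and Ryr3, the inhibitor and channels known from heart and other tissues, failed the filter, with medians of at most 0.127 scaled TPM in every group. At equal muscle amount 7, 12 and 6 of the 22 rose and 0 fell, beside 21.9%, 19.4% and 7.80% of all genes higher and 24.2%, 19.4% and 4.14% lower.

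Calcium store genes of cells outside muscle were called in both directions. Of 14 tested, 4 rose and 5 fell in saline against WT, 7 rose and 5 fell in ABE against WT, and 6 rose and 3 fell in ABE against saline. Beside these stand 25.9% and 26.7%, 35.1% and 35.4%, and 25.1% and 23.7% of all genes, so that nothing particular to the list is read from its counts. Calr, the luminal buffer calreticulin, lay at 21.7 to 28.7 scaled TPM in WT (median 24.9), 25.7 to 37.1 in saline (median 32.7) and 20.5 to 37.7 in ABE mice (median 27.2). It rose by 0.34 ± 0.07 in saline against WT (limma, adjusted p = 0.00018) and fell by 0.22 ± 0.07 in ABE against saline (limma, adjusted p = 0.011). Atp2a3, a calcium pump of blood and other cells outside muscle, had medians of 26.8, 15.3 and 10.5 and changed by -0.85 ± 0.15 in saline against WT (limma, adjusted p = 1.6e-05) and by -0.46 ± 0.15 in ABE against saline (limma, adjusted p = 0.011). All 12 saline libraries lay below all 12 WT libraries for Atp2a3, which 4.74% of the genes tested did. Atp2b4, a pump of the plasma membrane, fell by 0.31 ± 0.10 (limma, adjusted p = 0.011) and 0.43 ± 0.10 (limma, adjusted p = 0.0020) in the same comparisons. Stim1, the sensor that reports an empty store, changed by 0.10 ± 0.11 in saline against WT (limma, adjusted p = 0.48) and by 0.53 ± 0.11 in ABE against saline (limma, adjusted p = 0.00088), while Stim2, Tmem38b and Atp2b1 rose in both LMNA G/G groups against WT, by 0.31, 0.46 and 0.17 in saline and 0.42, 0.86 and 0.27 in ABE mice.

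Among all genes, those whose levels were most like the mean of Atp2a1, Casq1 and Ryr1 over the 36 libraries were Cmya5 (Pearson r = 0.996), Eef1a2 (0.996), Ttn (0.995), Ndrg2 (0.995) and Hjv (0.995). These are descriptions across libraries that share groups and a muscle amount that varied widely, and 5.78% of all genes tested had r above 0.9. By the same measure, r was 0.994 for Pvalb, 0.992 for Cacna1s, 0.990 for Jph1 and 0.982 for Trdn, but 0.892 for Casq2 and 0.32 for Atp2a2.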

How the data were processed

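Poly(A) RNA of 36 tibiae, without epiphyses and marrow, was sequenced. The authors aligned reads with STAR 2.73a to GRCm38, quantified GENCODE genes with QoRTs and deposited a TPM table of 56246 genes. How TPM were calculated is not given in the sources used here, but every value above 0 was a whole number of reads (100% within 0.001) divided by gene length less a constant, so reads were recovered; gene length was taken from the same table. TPM were scaled by median ratios over 14219 genes, 0.5 was added before log2, and 15928 genes with a mean of at least 0.5 were fitted with limma 3.58.1 in R 4.3.3 (all libraries, sex as covariate, Benjamini-Hochberg, threshold 0.05). Another fit added the mean log2 of Acta1 and Ckm, and a further one the interaction of sex and group. Ratios were tested over 100000 permutations. Other steps used scipy 1.17.1, pandas 2.3.3, numpy 2.4.6 and matplotlib 3.10.9 under Python 3.11.15.

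The genes and lists were chosen with earlier results of these data known. Named besides were the 4 most abundant genes of each other calcium list and those called in saline against WT against the direction of most of their list, the 5 genes most like Atp2a1, Casq1 and Ryr1, and the 2 most abundant markers of each list, and other genes are said to have been named after their values were seen. Each library is 1 mouse by its label, and 0 pairs of libraries agreed within sampling noise. Gene coordinates are from GENCODE vM21 (GRCm38). The fits were tested on simulated data. Alternatives were other pseudocounts, filters and scalings, 1 sex, other measures of muscle amount, and each library left out; the slow fiber covariate and the other settings for Sln on reads were chosen after seeing the data. Counting error covers reads only.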

Additional observations from a re-analysis of the deposited data

Results flagged for a closer look

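The library of WT male replicate 10 stood far above the other 5 WT males for Atp2a2, at 12.75 scaled TPM, by the gap to its nearest neighbour relative to the range of the group. It was the single value so marked among 60 groups of 6 libraries examined (10 genes, 3 groups and 2 sexes), where chance alone marks about 1 in 20. Its Myh7 was 4.68 scaled TPM, and that of the other WT males was 0.0050 to 0.217.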

How the results depend on the processing

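No paired analysis was possible because the labels number each mouse separately and no number is shared between groups. Over the alternatives, 761 of 885 values of single calcium handling genes kept their direction and side of the threshold, 80 lost the threshold, 29 gained it and 15 turned direction; of 2160 values with 1 library left out, 2056 kept both, 94 lost the threshold, 10 gained it and 0 turned. A further 62 values below the threshold in both fits changed sign. Reads of Sln were few (1 to 24 in WT). The causes were not tested.

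Counts here include Casq2, which passed the filter through its level in ABE mice, so that its part in the ABE comparisons is a description. Genes called in saline against WT (7) fell to 2 in TPM as deposited and 0 in females alone, and those in ABE against saline (9) to 5 and, in males alone, 2; with 1 library left out they ranged from 3 to 7 and stayed at 9, and in ABE against WT ranged from 8 to 9. At equal muscle amount, saline against WT (1) gave 0 with TPM as deposited, a pseudocount of 1, a mean of at least 5, no sex covariate or the slow fiber covariate, 2 with only the groups compared, females alone, array weights, Acta1 alone or a slope fixed at 1, 3 with limma-voom or the fast fiber list, and 4 with Ckm alone or limma-voom and the slow fiber covariate (left out, 0 to 1). ABE against WT (4) gave 0 in males alone, 1 with quantile normalization or Acta1 alone, 2 with the fast fiber list or a slope fixed at 1 and 7 with Ckm alone (left out, 2 to 5, with 2 without saline replicate 4). ABE against saline (4) gave 0 in females alone or with a slope fixed at 1, 2 with a mean of at least 5 or only the groups compared and 7 with the fast fiber list (left out, 3 to 5). The fit with a slope fixed at 1 treats every gene as a muscle gene.

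In females alone the difference in the log2 ratio of Atp2a1 to Atp2a2 in saline against WT was 0.53 and that of Casq1 to Casq2 0.34, both past no threshold, and with a pseudocount of 1 that of Casq1 to Casq2 in ABE against saline passed at 0.81. That of Casq1 to Casq2 was 1.49 in ABE against WT but 0.93 with a pseudocount of 0.1 and 0.58 with none, and in ABE against saline 0.21 and -0.0016. With 1 library left out the Atp2a1 ratio ran from 1.14 to 1.54, 1.97 to 2.35 and 0.62 to 1.03 (passing without ABE replicate 9), and the Casq1 ratio from 0.76 to 1.05, 1.36 to 1.61 and 0.45 to 0.72 (passing without ABE replicate 2 or saline replicate 2, 7, 11 or 12).

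Direction turned as follows. Atp2a2 in ABE against WT was -0.18 as deposited and -0.11 in females. At equal muscle amount in saline against WT, Atp2a1 was -0.22 with the fast fiber list, Atp2a2 0.19 with limma-voom and the slow fiber covariate, Casq1 0.15 with Ckm alone, Ryr1 -0.39 in males and Jph1 -0.076 with a slope of 1. In ABE against WT with a slope of 1, Atp2a2 was -2.16, Casq1 -0.033, Casq2 -1.52, Ryr1 -0.093, Cacna1s -0.019 and Jph1 -0.27, and Ryr1 was -0.072 in males; in ABE against saline with a slope of 1, Casq2 was -0.50. Myl2 in saline against WT was 1.31 in males. As deposited, ABE against WT gave Calr -0.45, Stim2 -0.056, Atp2b1 -0.22 and Smtn -0.41, and ABE against saline Smtn -0.022.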
